A study of Mus musculus with 6 samples.

Results

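The integrated stress response and the unfolded protein response were followed here through 10 genes: *Atf4*, *Ddit3*, *Trib3*, *Chac1*, *Asns*, *Gdf15*, *Hspa5*, *Dnajb9*, *Xbp1* and *Herpud1*. They were taken by symbol from a table of 25403 genes measured by RNA-seq of liver poly(A) RNA, and each symbol had 1 row in the table. The livers came from 3 wild-type C57BL6/J (WT) mice and 3 mice with whole-body *Themis* knockout (*Themis*-KO). At 10 to 12 weeks of age both groups were put on the same diet, which induces metabolic dysfunction-associated steatohepatitis (MASH): fat gave 40% of its calories and fructose 20%, and cholesterol made up 2%. They stayed on it for 3 months. The knockout is labelled as whole-body and is not limited to hepatocytes. The study describes the mice of this diet experiment as male, while the labels give no sex, and livers of mice without the diet were not analysed here. The comparison asks how livers with and without THEMIS differ under the diet, here read through stress genes.

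The integrated stress response starts when a kinase phosphorylates the translation factor eIF2α, which slows protein synthesis and favours translation of *Atf4* mRNA. The ATF4 protein then raises genes of amino acid supply and further transcription factors, among them CHOP, the product of *Ddit3*. The unfolded protein response is set off by misfolded proteins in the endoplasmic reticulum (ER) and has 3 sensors, of which PERK feeds into eIF2α, while IRE1 splices *Xbp1* mRNA and ATF6 is cut to a transcription factor. XBP1 and ATF6 raise ER chaperones, secretory genes and ER-associated degradation (ERAD). Hepatocytes secrete most plasma proteins and carry an abundant ER, and both pathways are known to be active in fatty liver disease. A count of reads per gene shows neither the translation of *Atf4* nor the splicing of *Xbp1*.

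Both arms are written into promoters as short motifs, and these are shown for the 5 of the 10 genes in which a match was found. All 10 matched RefSeq promoter windows (GRCm38.p6), from 250 bases before to 50 bases after an annotated start, and both strands were searched for 4 motifs. The ER stress response element (ERSE) is CCAAT and CCACG with 9 bases between, ERSE-II is ATTGG and CCACG with 1 base between, TGACGTGG is bound by ATF6 and XBP1, and TGATGNAA is the core of the C/EBP-ATF response element read by ATF4 and CHOP. An ERSE was found in 0.119% of all 32851 windows, ERSE-II in 0.0365%, TGACGTGG in 0.676% and TGATGNAA in 3.97%. The matches in the 10 genes follow in the direction of the gene, with the motif in capitals.
*Hspa5*, ERSE, chr2:34772020-34772048, + strand: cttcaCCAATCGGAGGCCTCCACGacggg
*Herpud1*, ERSE-II, chr8:94386368-94386396, + strand: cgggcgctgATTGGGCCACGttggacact
*Herpud1*, TGATGNAA on the opposite strand, chr8:94386306-94386335, + strand: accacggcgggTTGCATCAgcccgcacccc
*Asns*, TGATGNAA, chr6:7693214-7693243, − strand: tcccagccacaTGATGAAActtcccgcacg
*Chac1*, TGATGNAA on the opposite strand, chr2:119351038-119351067, + strand: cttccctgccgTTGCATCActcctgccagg
*Trib3*, TGATGNAA on the opposite strand, chr2:152344028-152344057, − strand: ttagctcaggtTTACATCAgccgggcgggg
The *Hspa5* element began 65 bases before the RefSeq start, the *Asns* element 23 before it and the *Chac1* element 193 before it. In *Herpud1* the ERSE-II began 52 bases before the start and the other match 112 before it, and in *Trib3* the match began 15 bases after the start. In the GENCODE models the *Hspa5* and *Asns* elements lie in the 5′ untranslated part of a first exon. Those of *Chac1*, *Herpud1* and *Trib3* lie upstream of every transcript of their gene. Of the *Trib3* stretch, 5 of 30 bases reach into an exon, and these are lower-case bases after the motif. None of these letters was found in the windows of *Atf4*, *Ddit3*, *Gdf15*, *Dnajb9* and *Xbp1*. A match is a string of letters and not a measured binding site.

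Several facts of the libraries bear on each comparison. The libraries held 20679642 to 25649767 counts on genes, and 14496 genes, with all 10 described here, passed the filter on low counts. The *Themis* counts did not separate the labels: levels were 8.07, 25.6 and 12.0 TMM-normalized CPM (counts scaled to a common library size) in livers labelled WT and 8.63, 7.74 and 9.97 in livers labelled *Themis*-KO (log2 fold change −0.79, SE 0.38, adjusted p = 0.199 by edgeR's quasi-likelihood test). Which part of the gene was deleted is not given in the sources used here, so a count over the whole gene cannot check the genotype, and the directions given here rest on the labels. In WT replicates 1 and 2, 96.6% and 96.8% of the counts shared by *mt-Nd3* and its near-copy *Gm28438* fell on *Gm28438*, against 2.20% to 3.26% in the other 4 livers. A fit with this mitochondrial type as a covariate sets WT replicate 3 alone against the *Themis*-KO livers. Over all 14496 genes tested, edgeR called 4.97% higher and 4.14% lower in *Themis*-KO livers, an unadjusted p under 0.05 marked 16.8% and 13.9%, and DESeq2 called 9.18% and 7.83%, and each count of calls is to be read beside these shares. Hepatocyte markers marked the tissue as liver, with a summed level of 74839 to 82531 CPM in WT and 64504 to 68519 in *Themis*-KO livers, and 2 of 12 were lower. The summed level of 10 stellate cell markers was 446 to 510 CPM in WT and 683 to 732 in *Themis*-KO livers (6 of 10 higher), that of 8 cholangiocyte markers 157 to 194 and 393 to 629 (2 of 8 higher), and that of 10 macrophage markers 382 to 663 and 657 to 853 (3 of 10 higher). The T cell list holds *Themis* itself, and without it the sums were 3.98 to 5.52 and 3.10 to 7.31 (1 of 5 tested lower, *Cd4*). For endothelial cells they were 240.4 to 262 and 271 to 299 (1 of 8 higher), and for B cells they were 4.36 to 10.1 and 3.96 to 9.78 (0 of 6 tested called). Of the plasma cell markers, *Sdc1*, at 154 to 170 and 146 to 175 CPM, carried most of the sum, and without it the sums were 16.6 to 26.6 and 12.5 to 16.3 (0 of 5 tested called). No listed marker was at 0 in every liver. In bulk liver, fewer cells of a type and less RNA per cell cannot be told apart, and the part of cell makeup in the results was not tested.

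Per kilobase of exon, the level of the 10 genes spanned a wide range. *Hspa5*, which encodes the main ER chaperone BiP, and *Herpud1*, an ER membrane protein of ERAD, were the most abundant in WT livers, at 187 ± 77.8 and 175 ± 0.985 CPM per kilobase (SD, n = 3), and they did not differ beyond their spread. *Xbp1* followed at 50.8 ± 14.8, then *Atf4* at 28.8 ± 3.12 and *Dnajb9* at 28.7 ± 7.23, which lay within each other's spread. *Gdf15* stood at 8.83 ± 5.21, *Ddit3* at 4.52 ± 0.480, *Trib3* at 3.63 ± 0.282 and *Chac1* at 3.27 ± 1.23 CPM per kilobase, and neighbours among these 4 overlapped within their spread except *Ddit3* and *Trib3*. *Asns*, the asparagine synthetase, was the lowest at 0.793 ± 0.0959.

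**Figure D1:**
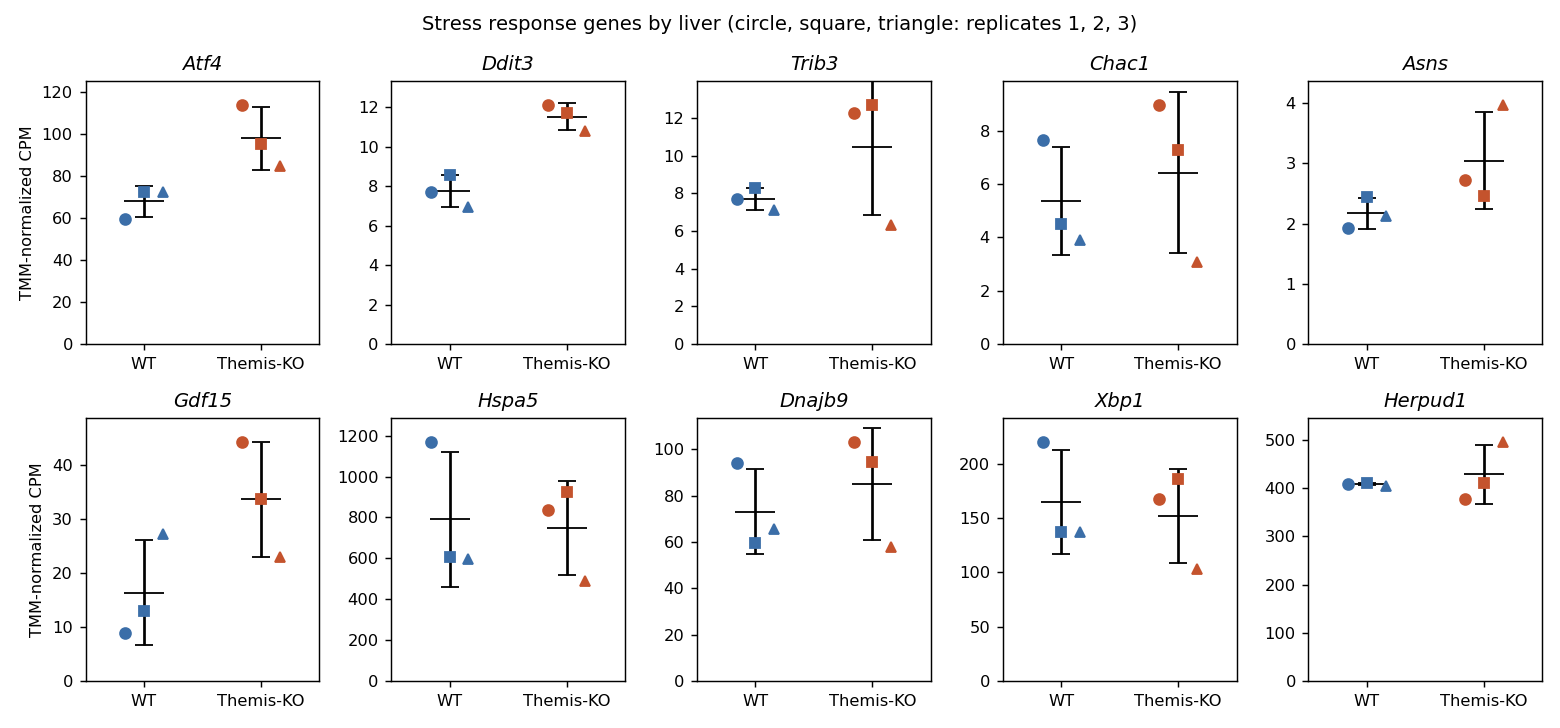
Level of each of the 10 genes in every liver, in TMM-normalized CPM on a linear axis from 0, with WT in blue and Themis-KO in orange; horizontal bars are group means and whiskers the SD over 3 livers. Atf4, Ddit3 and Asns have every Themis-KO liver at or above the highest WT liver, and Hspa5 and Xbp1 are highest in WT replicate 1.

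Of the integrated stress response, the transcription factor genes *Atf4* and *Ddit3* were higher in livers labelled *Themis*-KO, while *Trib3* did not pass the test. *Atf4* stood at 59.4, 72.3 and 72.1 CPM in WT replicates 1 to 3 and at 114, 94.97 and 84.5 CPM in *Themis*-KO replicates 1 to 3. Every *Themis*-KO liver lay above every WT liver, and *Themis*-KO replicate 1 was the highest. The difference of *Atf4* was 0.52 on the log2 scale (SE 0.131, a 1.44-fold rise with a 95% interval of 1.16 to 1.78, adjusted p = 0.0482 by edgeR). *Ddit3*, which encodes the pro-apoptotic factor CHOP, stood at 7.71, 8.59 and 6.95 CPM in WT and 12.1, 11.7 and 10.8 CPM in *Themis*-KO livers. Again the groups did not overlap, and the *Themis*-KO livers lay close together. Its difference was 0.57 (SE 0.128, 1.49-fold with a 95% interval of 1.21 to 1.83, adjusted p = 0.0388). In GENCODE a second gene model named *Ddit3* overlaps the first by 2925 bases. The counts used here held 1 row of that name, and the annotation release behind them is not given. RSEM can divide reads between such models, so the level of *Ddit3* is uncertain where that model was in use. Both calls stood close to the threshold. Each was lost when any 1 of 5 livers was left out and kept only without *Themis*-KO replicate 3. The adjusted p of *Atf4* by edgeR ranged from 0.0112 to 0.167 over the 6 fits that leave out a liver, and that of *Ddit3* from 0.0149 to 0.140. The log2 differences stayed positive in these fits. They were also positive with the mitochondrial type as a covariate, a fit that rests on WT replicate 3 alone for the WT side and so adds little. Over all these fits the log2 differences lay between 0.40 and 0.60 for *Atf4* and between 0.50 and 0.73 for *Ddit3*.

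*Trib3* encodes a pseudokinase that is induced by ATF4 and CHOP and restrains both. It stood at 7.71, 8.30 and 7.10 CPM in WT and 12.3, 12.7 and 6.33 CPM in *Themis*-KO livers. *Themis*-KO replicates 1 and 2 lay above the WT livers and replicate 3 below all of them, so the groups overlapped. The log2 difference was 0.44 (SE 0.252, 95% interval −0.14 to 1.03, adjusted p = 0.270). Without *Themis*-KO replicate 3 it was 0.68 (adjusted p = 0.00780, against 0.365 to 0.600 without any 1 other liver).

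Of a list of 9 transcription factors and coregulators of this response, which holds *Atf4*, *Ddit3* and *Trib3*, 4 were higher and 0 lower (adjusted p under 0.05), beside 4.97% higher and 4.14% lower of all 14496 genes tested. At an unadjusted p under 0.05 it was 7 higher and 0 lower, and with DESeq2 5 and 0. The median log2 difference was 0.52, beside 0.0095 over all genes tested. *Atf3*, a stress-induced repressor, changed the most among the 4: it stood at 2.29, 2.93 and 4.38 CPM in WT and 19.1, 14.3 and 7.79 CPM in *Themis*-KO livers (log2 fold change 2.09, SE 0.361, adjusted p = 0.0241). *Nupr1*, a small chromatin-associated stress protein, stood at 3.12, 3.60 and 2.72 CPM in WT and 7.69, 6.32 and 4.68 CPM in *Themis*-KO livers (0.99, SE 0.220, adjusted p = 0.0386). For both genes the groups did not overlap, and *Themis*-KO replicate 1 was the highest and replicate 3 the lowest of its group. The calls held in 2 of 6 fits that left out a liver for *Atf3* and in 1 of 6 for *Nupr1*, with adjusted p up to 0.104 and 0.138.

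Of genes downstream of ATF4, *Asns*, *Chac1* and *Gdf15* had positive log2 differences, and none of them passed the test. *Asns* stood at 1.93, 2.45 and 2.13 CPM in WT and 2.72, 2.45 and 3.97 CPM in *Themis*-KO livers. Its groups met at the level of WT replicate 2 and *Themis*-KO replicate 2, which printed the same value to 3 digits with the latter higher, and the difference did not pass the test (0.49, SE 0.238, adjusted p = 0.205). *Chac1*, an enzyme that degrades glutathione, stood at 7.66, 4.51 and 3.91 CPM in WT and 8.97, 7.27 and 3.07 CPM in *Themis*-KO livers. The groups overlapped throughout, with both the highest and the lowest liver among *Themis*-KO (0.27, SE 0.400, 95% interval −0.66 to 1.20, adjusted p = 0.675). *Gdf15*, a secreted stress hormone that lowers food intake, stood at 8.90, 12.9 and 27.3 CPM in WT and 44.3, 33.7 and 23.0 CPM in *Themis*-KO livers. WT replicate 3 lay above *Themis*-KO replicate 3, so these groups overlapped too. The *Gdf15* difference was the largest of the 10 genes in size, at 1.04 (SE 0.401, 2.05-fold with a 95% interval of 1.08 to 3.90), and had an adjusted p of 0.130 from an unadjusted p of 0.0331. It was 1.63 without WT replicate 3 (adjusted p = 0.0354 by edgeR), 0.74 to 1.23 without any 1 other liver (adjusted p = 0.0535 to 0.354) and 0.31 with the mitochondrial type as a covariate.

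In the wider lists of ATF4 targets, most log2 differences were positive and few genes were called. They were positive for 13 of 16 tested genes of amino acid supply, 8 of 13 of the synthetase list and 12 of 13 other targets. Of 16 tested genes of amino acid supply, 2 were higher and 1 lower by edgeR, beside 4.97% and 4.14% of all genes (unadjusted 9 and 3, DESeq2 6 and 3), and the median log2 difference was 0.51. *Mthfd2*, of mitochondrial one-carbon metabolism, rose from 2.39, 2.02 and 2.49 CPM in WT to 5.06, 5.76 and 4.06 CPM (1.11, SE 0.195, adjusted p = 0.0246). *Slc3a2*, the heavy chain of several amino acid transporters, rose from 31.6, 30.8 and 33.8 CPM to 54.6, 59.8 and 37.7 CPM (0.66, SE 0.162, adjusted p = 0.0457). *Cth*, the transsulfuration enzyme that makes cysteine and a gene with high expression in hepatocytes, fell from 157, 173 and 136 CPM to 82.1, 84.6 and 89.4 CPM (−0.86, SE 0.105, adjusted p = 0.0112). In all 3 the groups did not overlap. *Phgdh* had too few counts to be tested.

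Of 13 genes for aminoacyl-tRNA synthetases and a tRNA exporter, 1 was higher and 0 lower, beside the same shares (unadjusted 4 and 1, DESeq2 2 and 1), with a median of 0.096. It was *Gars*, at 42.9, 44.3 and 41.3 CPM in WT and 58.2, 55.2 and 51.5 CPM in *Themis*-KO livers (0.36, SE 0.0818, adjusted p = 0.0401). Of 13 other targets of ATF4 and CHOP, which include *Chac1* and *Gdf15*, 1 was higher and 0 lower, again beside 4.97% and 4.14% (unadjusted 7 and 0, DESeq2 5 and 0), with a median of 0.44. This was *Tnfrsf10b*, a death receptor, at 1.15, 1.82 and 2.49 CPM in WT and 4.80, 5.59 and 3.78 CPM in *Themis*-KO livers (1.37, SE 0.291, adjusted p = 0.0356). TGATGNAA was found in the promoters of 5 of 9 matched genes of the synthetase list (*Aars*, *Gars*, *Iars*, *Tars* and *Yars*). In the transcription factor list it was 4 of 9 (*Atf3*, *Jdp2*, *Nupr1* and *Trib3*). It was 3 of 14 in the amino acid list (*Asns*, *Pycr1* and *Slc7a11*) and 3 of 10 in the other targets (*Chac1*, *Fgf21* and *Vldlr*). Over all genes matched to a promoter it was 1219 of 27025. The called genes *Mthfd2*, *Slc3a2*, *Cth* and *Tnfrsf10b* were not among the matches, and a link between motif and call was not tested. The calls of *Mthfd2*, *Slc3a2*, *Cth*, *Gars* and *Tnfrsf10b* held in 2, 1, 3, 1 and 2 of the 6 fits that leave out a liver. The fit with the mitochondrial type as a covariate is not counted here. It sets WT replicate 3 alone against the *Themis*-KO livers and so can say little about single calls.

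**Figure D2:**
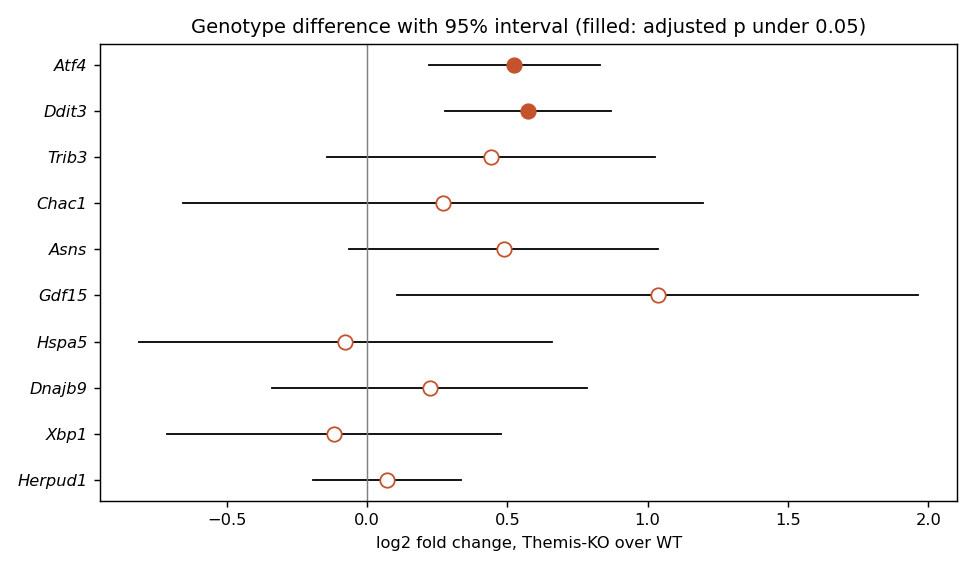
Log2 fold change of each gene in Themis-KO over WT livers (points) with its 95% interval (lines) from edgeR; filled points passed an adjusted p of 0.05. Atf4 and Ddit3 are filled with intervals above 0, Gdf15 has the widest distance from 0 but is open, and the intervals of Hspa5, Dnajb9, Xbp1 and Herpud1 span 0.

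The 4 genes of the ER-folding arm did not pass the test. *Hspa5* stood at 1171, 604 and 597 CPM in WT and 837, 922 and 489 CPM in *Themis*-KO livers. The highest liver was WT replicate 1 and the lowest *Themis*-KO replicate 3, and within each group the highest liver was 1.96 and 1.89 times the lowest. The log2 difference was −0.077 (SE 0.317, 95% interval −0.81 to 0.66, adjusted p = 0.886), and it was 0.32 without WT replicate 1 (adjusted p = 0.491). *Dnajb9*, which encodes the BiP cochaperone ERdj4, stood at 94.1, 59.6 and 65.5 CPM in WT and 103, 94.6 and 57.8 CPM in *Themis*-KO livers. Its highest liver was *Themis*-KO replicate 1 and its lowest *Themis*-KO replicate 3 (0.22, SE 0.242, 95% interval −0.34 to 0.78, adjusted p = 0.560).

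*Xbp1*, the transcription factor that IRE1 activates, stood at 220, 137 and 137 CPM in WT and 167, 186 and 103 CPM in *Themis*-KO livers. As for *Hspa5*, WT replicate 1 was the highest and *Themis*-KO replicate 3 the lowest (−0.12, SE 0.257, 95% interval −0.71 to 0.48, adjusted p = 0.783), and without WT replicate 1 the difference was 0.15 (adjusted p = 0.737). *Herpud1* behaved otherwise. It stood at 409, 410.1 and 406 CPM in WT and 378, 412 and 497 CPM in *Themis*-KO livers, and *Themis*-KO replicate 3, the lowest liver for *Hspa5*, *Dnajb9* and *Xbp1*, was the highest for *Herpud1* (0.071, SE 0.114, 95% interval −0.19 to 0.33, adjusted p = 0.701). The promoter shown for *Herpud1* is the only one of the 10 with both an ER stress element and TGATGNAA, and a link to its levels was not tested. An antisense gene, *Gm15890*, overlaps *Herpud1* by 535 bases, and since it is not stated that counting used strand, their reads may not be told apart. These intervals leave room for differences in either direction, and the test does not show equal levels.

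In the lists around these genes the highest liver was most often WT replicate 1, as for *Hspa5* and *Xbp1* but not *Dnajb9* and *Herpud1*. Of 20 ER chaperones and folding enzymes, 0 were higher and 0 lower by edgeR, beside 4.97% and 4.14% of all genes (unadjusted 0 and 2, DESeq2 0 and 0). The median log2 difference was −0.20, and −0.050 with scaling by total counts alone. Among the fits that leave out a liver, it turned positive only without WT replicate 1 (0.10). With the mitochondrial type as a covariate it was 0.078. That fit sets WT replicate 3 alone against the *Themis*-KO livers, so it cannot single out WT replicate 1. WT replicate 1 had the highest level for 17 of the 20 genes (85.0%, beside 19.5% of all genes tested), and *Themis*-KO replicate 3 the lowest for 12 (60.0%, beside 14.6%). *P4hb*, a protein disulfide isomerase and the gene of this list with the highest CPM, stood at 1614, 1567 and 1348 CPM in WT and 1311, 1386 and 1393 CPM in *Themis*-KO livers (−0.15, adjusted p = 0.360). *Hsp90b1*, the ER form of HSP90, stood at 1455, 856 and 828 CPM in WT and 902, 1016 and 707 CPM in *Themis*-KO livers (−0.26, adjusted p = 0.485). *Creld2*, an ER stress-induced gene named after its values were seen, gave the widest spread, from 115, 28.5 and 36.0 CPM in WT to 47.4, 66.5 and 23.4 CPM in *Themis*-KO livers (−0.38, adjusted p = 0.670). An ERSE was found in 7 of the 17 matched promoters of this list (*Calr*, *Canx*, *Creld2*, *Dnajc3*, *Hsp90b1*, *Hspa5* and *Pdia6*). Over all genes matched to a promoter it was 37 of 27025.

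**Figure D3:**
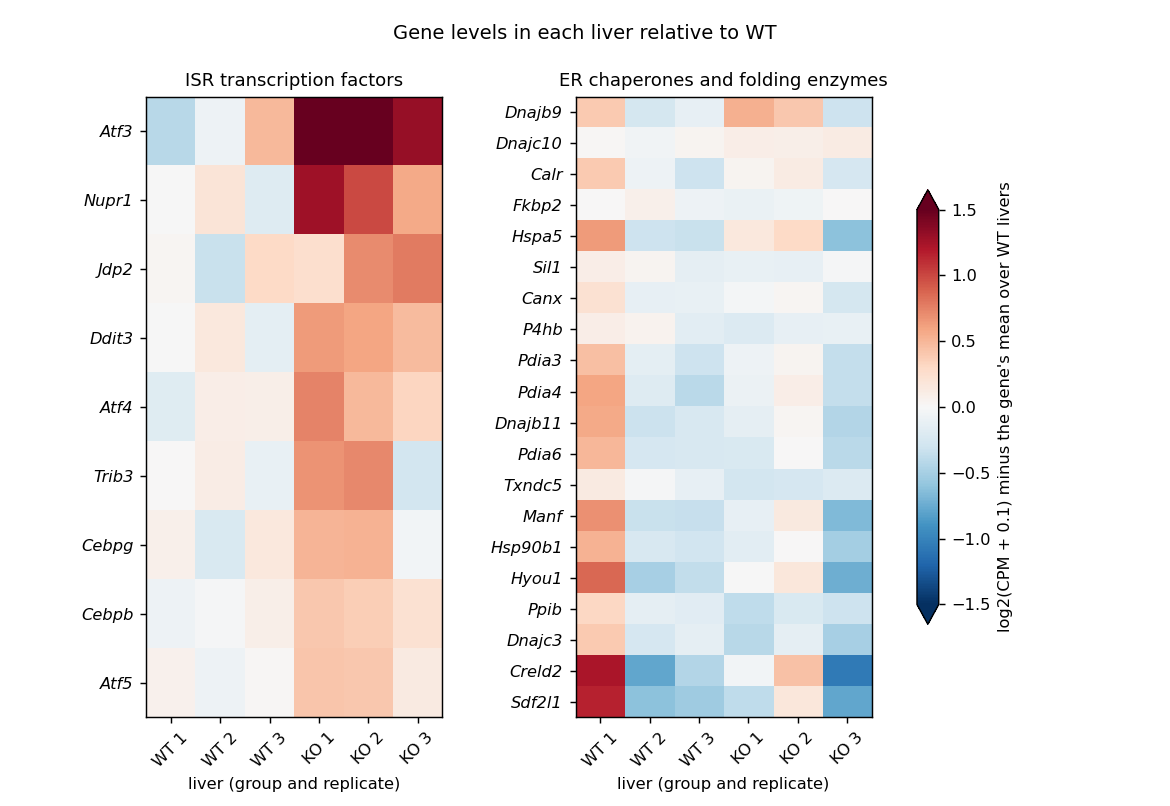
Colour gives log2(CPM + 0.1) of a gene in a liver minus its mean over the 3 WT livers, for 9 transcription factors of the integrated stress response (left) and 20 ER chaperones and folding enzymes (right); KO stands for Themis-KO, and values beyond 1.5 take the end colours. On the left the 3 Themis-KO columns are mostly red, and on the right the WT 1 column is red for most genes and the KO 3 column mostly blue.

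ERAD genes and the secretory genes that depend on XBP1 were not called either, and WT replicate 1 was again the liver with the highest level for most of them. Of 15 ERAD genes, which include *Herpud1*, 0 were higher and 0 lower by edgeR, beside 4.97% and 4.14% of all genes (unadjusted 0 and 2, DESeq2 0 and 1), with a median of −0.15, and WT replicate 1 was the highest liver for 10 of them (66.7%). *Vcp*, the ATPase that extracts ERAD substrates, stood at 469, 473 and 450 CPM in WT and 433, 437 and 426 CPM in *Themis*-KO livers (−0.10, adjusted p = 0.403). Of 21 genes of translocation and ER-to-Golgi transport, which include *Xbp1*, 0 were higher and 0 lower by edgeR, beside the same shares (unadjusted 0 and 4, DESeq2 0 and 1), with a median of −0.12. WT replicate 1 was the highest liver for 17 (81.0%), and the lowest was most often *Themis*-KO replicate 1, for 9 (42.9%). All 21 log2 differences were below 0 with TMM scaling, but only 9 with scaling by total counts alone, where the median of all genes moved to 0.15, and 13 without WT replicate 1. *Ssr3*, of the translocon-associated complex, stood at 343, 284 and 294 CPM in WT and 260, 291 and 270.1 CPM in *Themis*-KO livers (−0.16, adjusted p = 0.309).

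Among the stress sensors and the eIF2 control genes, edgeR called none, and DESeq2 called 1 sensor. Of 7 tested sensors, 0 were higher and 0 lower by edgeR, beside 4.97% and 4.14% of all genes (unadjusted 1 and 1, DESeq2 1 and 0), with a median of −0.037, and *Ern2* had too few counts. *Atf6* stood at 99.6, 81.9 and 94.2 CPM in WT and 99.2, 91.3 and 78.2 CPM in *Themis*-KO livers (−0.037, adjusted p = 0.850), and *Ern1*, which encodes IRE1, at 50.4, 50.4 and 58.6 CPM and 86.2, 74.5 and 43.8 CPM (0.36, adjusted p = 0.307). *Eif2ak3*, which encodes PERK and was named after its values were seen, was the sensor that DESeq2 called. It stood at 22.4, 18.3 and 27.0 CPM in WT and 80.2, 51.9 and 26.2 CPM in *Themis*-KO livers, where replicate 3 lay within the WT range (1.22, SE 0.359, adjusted p = 0.0691 by edgeR and 0.00281 by DESeq2, 0.00333 to 0.195 without any 1 liver). Of 10 genes of eIF2α, its phosphatases and eIF2B, 0 were higher and 0 lower by edgeR, beside the same shares (unadjusted 1 and 0, DESeq2 0 and 0), with a median of −0.013. *Ppp1r15b*, a phosphatase subunit, stood at 112, 106 and 109 CPM in WT and 104, 94.1 and 96.9 CPM in *Themis*-KO livers (−0.15, adjusted p = 0.235). *Ppp1r15a*, the stress-induced subunit GADD34 and the 1 gene of this list with an unadjusted p under 0.05, was named after its values were seen. It stood at 11.3, 10.8 and 13.9 CPM in WT and 25.0, 17.7 and 13.2 CPM in *Themis*-KO livers, where replicate 3 lay within the WT range (0.63, SE 0.228, adjusted p = 0.111, 0.0140 to 0.315 without any 1 liver).

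**Figure D4:**
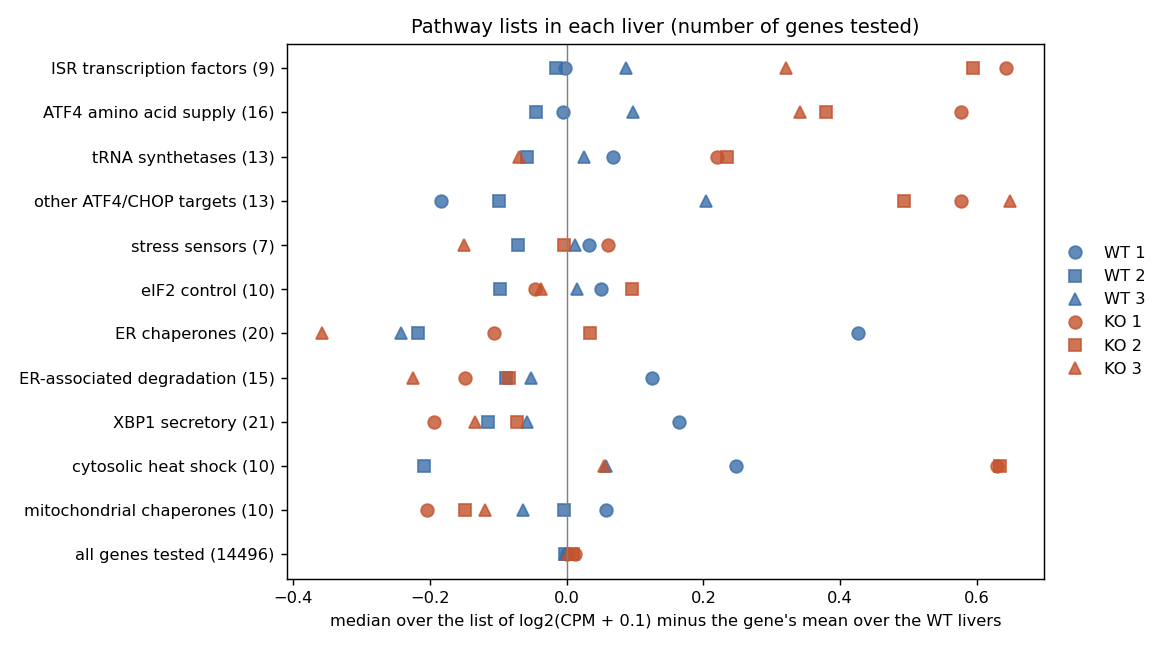
For each list (number of genes tested in brackets) the point of a liver is the median over the genes of log2(CPM + 0.1) minus the gene's mean over WT livers; blue is WT, orange Themis-KO (KO), and shapes are replicates. The Themis-KO points of the first 2 lists lie above all WT points, from 0.32 to 0.64 for the transcription factors, and for ER chaperones WT 1 stands apart at 0.43.

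Over the 10 genes, 2 were higher in *Themis*-KO livers and 0 lower by edgeR (4.97% and 4.14% of all genes tested, 9.11% in either direction), 3 and 0 at an unadjusted p under 0.05 (16.8% and 13.9%), and 2 and 0 by DESeq2 (9.18% and 7.83%). In 3 genes every *Themis*-KO liver lay above every WT liver (17.7% of all genes), in 0 below (16.9%), and in 7 the groups overlapped. The median log2 difference was 0.36, with 8 positive and 2 negative. Livers of one group differed as well: *Themis*-KO replicate 1 was the highest liver for 5 of the 10 genes and *Themis*-KO replicate 3 the lowest for 5, beside 22.3% and 14.6% of all genes. Left out in turn, *Themis*-KO replicate 3 gave 3 calls, WT replicate 3 gave 1, and each of the other 4 livers 0. Calls over all genes moved the same way and were most without *Themis*-KO replicate 3. They were 481 higher and 369 lower without WT replicate 3, and 8 to 27 and 12 to 57 without each of the other 4. With every liver they were 721 and 600, so the change in calls is not particular to the 10 genes. Over the 9 lists described here with the cytosolic heat shock and mitochondrial chaperone lists, 143 genes were tested, 9 were higher and 1 lower, with a median of −0.054.

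**Figure D5:**
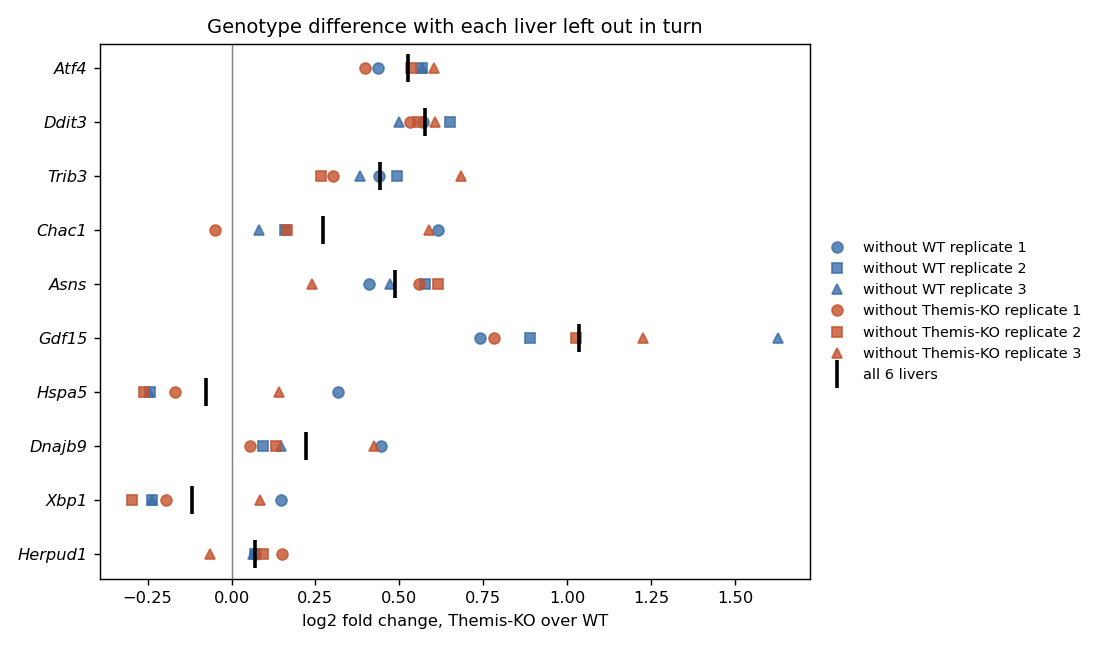
Log2 fold change of each gene in Themis-KO over WT livers with all 6 livers (black bars) and with each liver left out in turn (blue, a WT liver; orange, a Themis-KO liver; circle, square and triangle for replicates 1, 2 and 3). Atf4 and Ddit3 stay at 0.40 or above, Gdf15 moves between 0.74 and 1.63, and Hspa5, Xbp1, Chac1 and Herpud1 cross 0.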

How the data were processed

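Poly(A) RNA of 6 livers was sequenced as paired-end libraries. The authors mapped reads to GRCm38 with STAR 2.7.8a and deposited estimated counts per gene from RSEM 1.3.3, which divides shared reads among genes; cutadapt 2.3 is named in the submitters' processing notes. The deposited estimated counts were whole numbers already and were rounded as a safeguard. The annotation release and strand setting are not given in the sources used here. Groups came from the labels, which number the livers within a group and do not say more about their origin. The p-values set the difference between the groups against the spread between these samples within a group.

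Genes passing filterByExpr (14496 of 25403) were TMM-scaled and compared by glmQLFTest without covariates (edgeR 4.0.16, R 4.3.3), with Benjamini-Hochberg adjustment over all of them and a threshold of 0.05; the biological coefficient of variation was 0.157. DESeq2 1.42.0 and the other settings named below were alternatives. Exon lengths and positions came from GENCODE vM21. The genes and lists were chosen with earlier results of these data known. Genes named are the 10, *Themis*, up to 4 called genes of each list by size of change and, where a list had none, up to 2 with the highest mean CPM; *Eif2ak3*, *Ppp1r15a*, *Creld2*, *Cd4* and *Hspa1a* were added after their values were seen.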

Additional observations from a re-analysis of the deposited data

How the results depend on the processing

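Of 140 values of the 10 genes under 14 alternatives, 112 kept their direction and their side of the threshold, 15 lost the call, 3 gained one and 10 changed sign. Of the 10 genes, 2 were higher; this became 1 with RLE size factors (*Atf4*, adjusted p = 0.0502), 3 without a filter on low counts, 0 with the replicate block and 0 with the mitochondrial type, and 0 to 3 without 1 liver. Over the pathway lists, calls of higher genes (9) became 23 with DESeq2, 24 at a threshold of 0.1, 20 without a filter, 20 with scaling by total counts alone, 0 with the block and 0 with the mitochondrial type, and 0 to 34 without 1 liver. Calls of lower genes there (1) became 6, 9, 4, 1, 0 and 0 under the same settings, 2 with RLE, 2 with at least 10 counts in every liver, 2 with upper quartile scaling, and 0 to 7 without 1 liver. Over all genes, the 721 higher and 600 lower became 1279 and 1090 with DESeq2, 1664 and 1316 at 0.1, 1212 and 967 without a filter, 1449 and 387 with total counts, 17 and 45 with the block, 0 and 3 with the mitochondrial type (783 and 741 at an unadjusted p under 0.05), and 8 to 2228 and 12 to 2039 without 1 liver, the highest of each without *Themis*-KO replicate 3. Scaling by total counts moved the median log2 difference of all genes to 0.15. With total counts the sign turned for *Hspa5* (0.075), *Xbp1* (0.032), *Atf6* (0.10), *Vcp* (0.037) and *Hspa9* (0.036), and with the mitochondrial type for *Hspa5* (0.33), *Xbp1* (0.15), *P4hb* (0.016), *Hsp90b1* (0.080) and *Creld2* (0.35). Without 1 liver the log2 difference ranged from −0.26 to 0.32 for *Hspa5*, −0.29 to 0.15 for *Xbp1*, −0.049 to 0.62 for *Chac1*, −0.064 to 0.15 for *Herpud1*, −0.12 to 0.036 for *Atf6*, −0.40 to 0.054 for *Hsp90b1* and −0.76 to 0.50 for *Creld2*. None of these values passed the threshold, and the cause was not tested. Same-numbered livers did not deviate together (r = 0.000277, −0.241 and −0.157). With so few livers per group these values cannot show whether the numbers pair the samples. The paper speaks of pairs of WT and *Themis*-KO livers, and the labels do not say which livers form a pair. With the replicate block *Atf4* was at 0.52 (adjusted p = 0.130 by edgeR) and *Ddit3* at 0.58 (adjusted p = 0.112). Depth limits the low genes most directly: *Asns* rested on 42 to 84 counts per liver.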

Other observations

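Cytosolic heat shock genes, which HSF1 controls and which answer misfolded protein outside the ER, were counted above only within the total over all lists. Of 10 tested, 1 was higher and 0 lower by edgeR, beside 4.97% and 4.14% of all genes tested (unadjusted 4 and 0, DESeq2 4 and 0), with a median log2 difference of 0.43. *Hspa1b*, an inducible HSP70, stood at 19.5, 16.5 and 23.4 CPM in WT and 87.3, 68.5 and 29.7 CPM in *Themis*-KO livers (log2 fold change 1.64, SE 0.354, adjusted p = 0.0367, 0.00128 to 0.137 without any 1 liver). Its near-identical copy *Hspa1a*, named after its values were seen, stood at 3.72, 1.78 and 4.42 CPM and 35.6, 16.3 and 4.39 CPM (2.50, SE 0.688, adjusted p = 0.0601). Reads that fit both copies were divided by RSEM, so the level of each is uncertain. In both genes *Themis*-KO replicates 1 and 2 were the highest livers, and *Themis*-KO replicate 3 lay near the WT livers.

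Of 10 mitochondrial chaperones and proteases, 0 were higher and 0 lower by edgeR, beside 4.97% and 4.14% of all genes tested. At an unadjusted p under 0.05 it was 0 and 2, beside 16.8% and 13.9%, and with DESeq2 0 and 0. The median log2 difference was −0.14. *Hspd1*, the mitochondrial HSP60, stood at 710.3, 619 and 647 CPM in WT and 569, 565 and 520 CPM in *Themis*-KO livers (−0.26, SE 0.0936, adjusted p = 0.113 by edgeR). Every *Themis*-KO liver lay below every WT liver for *Hspd1*, as for 5 of the 10 genes of this list and 16.9% of all genes tested. Of the 10 log2 differences, 9 were negative with TMM scaling and 4 with scaling by total counts alone. *Hspa9*, the mitochondrial HSP70, stood at 705, 651 and 668 CPM and 651, 615 and 619 CPM (−0.10, adjusted p = 0.431).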
